A study of Mus musculus with 8 samples.

Results

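Iron handling genes were followed across 3 populations of dendritic cell (DC) precursors in mouse bone marrow. The set holds 9 genes: the ferritin chains Ftl1 and Fth1, the iron importers Tfrc and Slc11a2, the phagosomal metal transporter Slc11a1, the iron exporter Slc40a1, the heme-degrading enzyme Hmox1, and the iron regulatory proteins Ireb2 and Aco1. A probe set whose annotation names 1 gene only was found for 8 of them, out of 19938 genes with such a probe set. Slc11a1 had none and was not analysed here. The genes were chosen by name and function with the array values of these same comparisons already known, since Ftl1 had been seen among the largest decreases between progenitor fractions. Their values are therefore a description, with no test of a member.

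All arrays came from mice heterozygous for a Zeb2-GFP fusion reporter, so that no group is free of the modified allele. Common DC progenitors (CDPs), from which the DC lineages arise, are labelled as Zeb2hi (3 arrays) or Zeb2low (3 arrays). Pre-CD8 DCs, precursors of the CD8+ classical DC (cDC1) lineage, had 2 arrays. Neither sort markers nor ages or numbers of mice are stated in the labels, so the spread between arrays, which is all that the p-values measure, may be technical. Zeb2 itself had a log2 signal of 9.27 ± 0.20 (SD, n = 3) in Zeb2hi CDPs, 7.68 ± 0.18 (SD, n = 3) in Zeb2low CDPs and 6.73 ± 0.28 (SD, n = 2) in pre-CD8 DCs. The 6 DC progenitor markers examined lay above the array's 40th percentile on all 8 arrays. The mean log2 signal of 8 cDC1 markers lay between 5.84 and 6.22 in Zeb2hi CDPs, 7.48 and 7.65 in Zeb2low CDPs, and 8.75 and 8.95 in pre-CD8 DCs. That of 6 monocyte markers lay between 7.41 and 8.86, highest in Zeb2hi CDPs, but its members differed in direction. Zeb2low minus Zeb2hi CDPs, F13a1 (-2.47) and Csf1r (-0.96) were lower on the log2 scale. Fn1 (0.91) and Ccr2 (0.38) were higher, and Ms4a6c (0.03) and Ms4a6d (-0.01) hardly differed. Median signals per array lay between 4.91 and 5.14.

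Cells take up transferrin-bound iron through the transferrin receptor Tfrc, and Slc11a2 moves the released iron out of the endosome. Surplus iron is stored in ferritin, a shell of heavy chains (Fth1), which oxidise iron, and light chains (Ftl1), which help it to mineralise, or leaves through ferroportin (Slc40a1). Ireb2 and Aco1 bind iron-responsive elements in ferritin and Tfrc mRNAs when iron is low, which blocks ferritin translation and stabilises Tfrc mRNA. Ferritin is therefore controlled largely in translation, a step that arrays of RNA do not measure. Heme oxygenase 1 (Hmox1) frees iron from heme and is, with both ferritin chains and ferroportin, a classical target of the transcription factors Nrf2 and Bach1.

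The ferritin genes had their highest CDP signals in the Zeb2hi fraction. Ftl1 had log2 signals of 10.96, 11.49 and 11.44 on Zeb2hi arrays 1 to 3, and of 7.47, 9.92 and 8.40 on Zeb2low arrays 1 to 3. All Zeb2low arrays were below all Zeb2hi arrays, and the lowest, array 1, was 5.47-fold below the highest Zeb2low array. The group means differed by -2.70 ± 0.71 (log2, SE), a 6.49-fold lower signal in Zeb2low CDPs. Pre-CD8 DC arrays 1 and 2 had Ftl1 signals of 12.11 and 9.55. Array 1 was thus the highest of all 8 arrays, while array 2 lay within the Zeb2low range, and the pre-CD8 DC mean of 10.83 describes neither.

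Fth1, the heavy chain, kept a similar order with smaller differences. Its log2 signals were 11.95, 12.16 and 12.18 in Zeb2hi CDPs, 10.60, 11.47 and 10.52 in Zeb2low CDPs, and 12.40 and 10.81 in pre-CD8 DCs. The Zeb2low and Zeb2hi arrays again did not overlap (-1.23 ± 0.39, log2, SE, a 2.35-fold lower signal). In both chains Zeb2low array 2 was the highest of its group and pre-CD8 DC array 1 the highest of all. Against Zeb2hi CDPs, pre-CD8 DCs differed by -0.47 ± 0.80 for Ftl1 and by -0.49 ± 0.44 for Fth1 (log2, SE), with overlapping arrays. These 2 values turned with a single array. Without pre-CD8 DC array 1 they were -1.75 and -1.28, and without array 2 they were 0.81 and 0.31. Marker lists of neutrophils and macrophages, described further on, were also highest on pre-CD8 DC array 1 and Zeb2low array 2. Without both arrays, the Zeb2low minus Zeb2hi difference was -3.36 for Ftl1 and -1.53 for Fth1. It had to grow, because Zeb2low array 2 was the highest of its group for both genes, so nothing is read from it. The part of these markers in the ferritin signals was not tested.

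**Figure D1:**
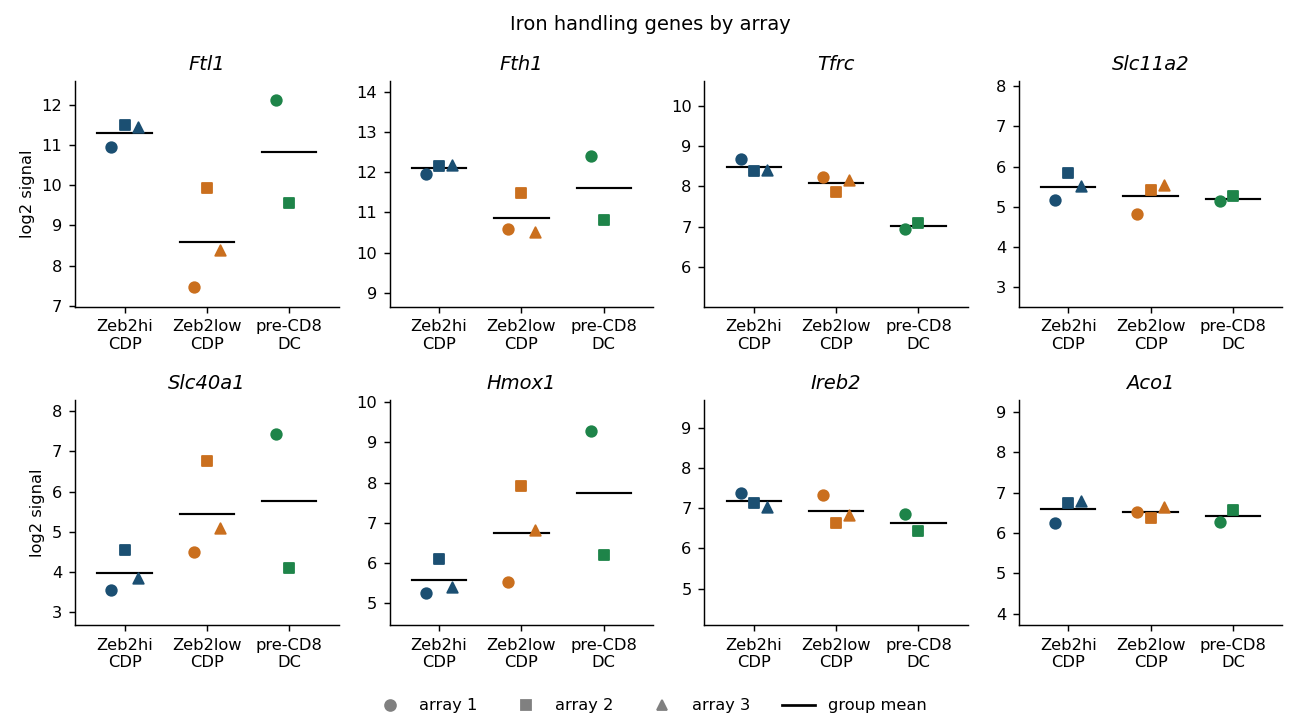
Log2 signal (vertical axis) of the 8 measured iron handling genes by group; each point is an array, its shape gives the array number, and bars are group means. Every panel spans the same number of log2 units around its own midpoint, so distances compare between panels: Tfrc separates the pre-CD8 DC arrays from all others, while Ftl1, Slc40a1 and Hmox1 spread widely within Zeb2low CDPs and pre-CD8 DCs.

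The sequences upstream of the ferritin genes and of Tfrc are shown. These are the 3 genes whose arrays did not overlap between the CDP fractions, as was so for 41.8% of all genes tested. They were also picked because each holds a CCAAT box, the motif that NF-Y binds. The 250 bases before an annotated start (RefSeq, GRCm38.p6) were read for 6 of the 9 genes; Slc40a1, Slc11a2 and Hmox1 had no entry. The motif was chosen after the windows were seen. Capitals mark CCAAT or its complement ATTGG: Ftl1 at chr7:45459887-45460136 (minus strand), Fth1 at chr19:9982396-9982645 (plus strand) and Tfrc at chr16:32608646-32608895 (plus strand), each written 5′ to 3′ along the gene.
Ftl1: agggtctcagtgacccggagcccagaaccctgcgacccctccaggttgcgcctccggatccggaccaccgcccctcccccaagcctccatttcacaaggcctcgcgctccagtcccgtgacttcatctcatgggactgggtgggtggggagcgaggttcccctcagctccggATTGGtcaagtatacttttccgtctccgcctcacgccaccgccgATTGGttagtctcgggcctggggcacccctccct
Fth1: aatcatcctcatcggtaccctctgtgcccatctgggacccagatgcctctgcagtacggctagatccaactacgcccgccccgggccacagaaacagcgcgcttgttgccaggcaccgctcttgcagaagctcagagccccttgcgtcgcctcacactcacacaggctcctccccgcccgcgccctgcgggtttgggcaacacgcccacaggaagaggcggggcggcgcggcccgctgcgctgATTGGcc
Tfrc: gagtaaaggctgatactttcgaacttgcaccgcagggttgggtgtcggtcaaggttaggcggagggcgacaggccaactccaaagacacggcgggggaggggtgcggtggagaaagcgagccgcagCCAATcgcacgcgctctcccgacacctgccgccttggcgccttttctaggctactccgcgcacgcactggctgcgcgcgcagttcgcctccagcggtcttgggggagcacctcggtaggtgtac
Ftl1 held 2 matches and Fth1 and Tfrc 1 each. A second annotated start of Fth1 and one of Tfrc had none, nor had Aco1, Ireb2 or Slc11a1. CCAAT on either strand occurred in 33.8% of 32851 such windows. TGACNNNGC is the core of the antioxidant response element that Nrf2 binds. It occurred in 10.2% of windows on either strand and in none of the 8 windows of these genes. Bases further upstream were not read, so the windows do not show whether the genes hold the element elsewhere.

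The size of the Ftl1 difference depended on the probe set. Ftl1 has near-identical processed pseudogenes, and the annotation lists it under 5 probe sets. Only 10447591, used above, names Ftl1 alone; the other 4 name it together with the microRNA genes Mir692-2 and Mir692-3. Of the 11 Ftl1 transcript accessions of 10447591, all 11 are also listed for 10406198, 10508069 and 10563295, and 1 is listed for 10428336. The 4 shared probe sets were examined after the values of 10447591 had been seen.

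Between Zeb2low and Zeb2hi CDPs, 10563295 differed by -0.71 ± 0.38, 10406198 by -0.69 ± 0.38 and 10508069 by -0.53 ± 0.34 (log2, SE, in a fit over all 28853 probe sets), each with overlapping arrays. These amount to 1.64-, 1.62- and 1.44-fold lower signals, against 6.49-fold for 10447591. Probe set 10428336 went the other way, by 0.42 ± 0.13, with all Zeb2low arrays above all Zeb2hi arrays. Within groups, all 5 probe sets kept the same order of arrays. On 10563295, for example, the log2 signals were 11.00, 11.58 and 11.46 in Zeb2hi CDPs, 9.84, 11.14 and 10.94 in Zeb2low CDPs, and 12.04 and 11.00 in pre-CD8 DCs. A lower mean signal in Zeb2low CDPs was thus seen on 4 of 5 probe sets, and a separation of the arrays in that direction on 10447591 alone. Which probe set follows the Ftl1 transcript was not tested.

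**Figure D2:**
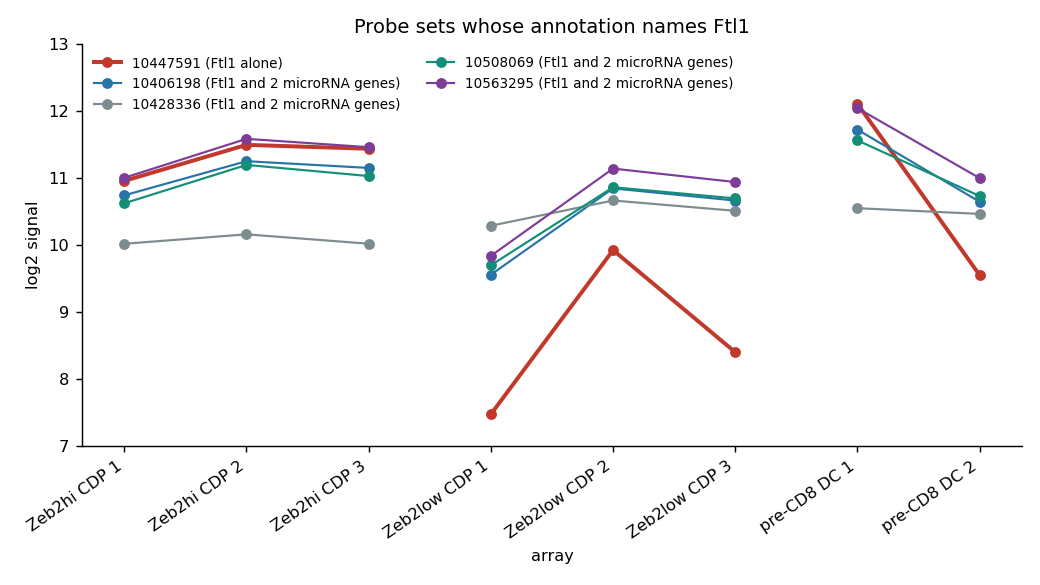
Log2 signal (vertical axis) of the 5 probe sets whose annotation names Ftl1, on each of the 8 arrays (horizontal axis); lines join the values of a probe set within a group and imply no order of arrays. Probe set 10447591, which names Ftl1 alone, drops to 7.47 on Zeb2low array 1, where the other 4 lie between 9.55 and 10.29, while pre-CD8 DC array 1 is the highest array on 4 of the 5.

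Tfrc, the transferrin receptor, stepped down from Zeb2hi CDPs to pre-CD8 DCs with little spread between arrays. Its log2 signals were 8.68, 8.39 and 8.40 in Zeb2hi CDPs, 8.23, 7.86 and 8.16 in Zeb2low CDPs, and 6.95 and 7.08 in pre-CD8 DCs. No 2 groups overlapped, and the gap between the lowest Zeb2low and the highest pre-CD8 DC array was 0.78. Pre-CD8 DCs had a 2.77-fold lower signal than Zeb2hi CDPs (-1.47 ± 0.18, log2, SE) and a 2.09-fold lower one than Zeb2low CDPs (-1.06 ± 0.18). Zeb2low CDPs differed from Zeb2hi CDPs by only -0.40 ± 0.16, which became -0.20 after a further quantile normalization and -0.57 with arrays centred on their medians. Leaving out any single array kept the pre-CD8 DC differences between -1.53 and -1.37 against Zeb2hi CDPs, and between -1.17 and -0.99 against Zeb2low CDPs. Tfrc is also a well-known gene of proliferating cells.

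Slc11a2, the endosomal importer, did not separate any groups. Its log2 signals were 5.16, 5.83 and 5.51 in Zeb2hi CDPs, 4.82, 5.42 and 5.55 in Zeb2low CDPs, and 5.13 and 5.28 in pre-CD8 DCs. Its largest group difference, pre-CD8 DCs minus Zeb2hi CDPs, was -0.29 ± 0.26 (log2, SE).

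Hmox1 and Slc40a1, which free iron from heme and export it, varied widely between the arrays of Zeb2low CDPs and between those of pre-CD8 DCs, and less in Zeb2hi CDPs. Hmox1 had log2 signals of 5.26, 6.10 and 5.40 in Zeb2hi CDPs, 5.52, 7.92 and 6.83 in Zeb2low CDPs, and 9.27 and 6.21 in pre-CD8 DCs. The pre-CD8 DC arrays thus differed 8.36-fold from each other, and Zeb2low arrays 1 and 2 differed 5.29-fold. Both pre-CD8 DC arrays were above all Zeb2hi arrays, by 0.11 at the nearest. The mean difference of 2.15 ± 0.88 (log2, SE) became 0.62 without pre-CD8 DC array 1.

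Slc40a1, the only known cellular iron exporter, had log2 signals of 3.55, 4.55 and 3.86 in Zeb2hi CDPs, 4.51, 6.75 and 5.09 in Zeb2low CDPs, and 7.42 and 4.09 in pre-CD8 DCs. It passed the array's 40th percentile on 1 of 3 Zeb2hi, 2 of 3 Zeb2low and 1 of 2 pre-CD8 DC arrays. Such low signals are near the floor of the array. The difference from Zeb2hi CDPs was 1.77 ± 0.92 (log2, SE), and 0.10 without pre-CD8 DC array 1. For both genes, pre-CD8 DC array 1 was the highest of the 8 arrays and Zeb2low array 2 came next.

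Neutrophil markers and most macrophage markers were highest on the same arrays, and erythroid markers were not. The mean log2 signal of 10 neutrophil markers was 9.23, 10.12 and 8.25 on Zeb2hi arrays 1 to 3, 10.14, 11.90 and 10.92 on Zeb2low arrays 1 to 3, and 12.21 and 10.22 on pre-CD8 DC arrays 1 and 2. All 10 passed the 40th percentile on every array but Zeb2hi array 3, where 9 did, and their summed log2 signal ranged from 82.5 to 101.2 in Zeb2hi CDPs, 101.4 to 119.0 in Zeb2low CDPs and 102.2 to 122.1 in pre-CD8 DCs. The mean of 10 macrophage markers lay between 4.40 and 4.66 in Zeb2hi CDPs, was 4.77, 5.62 and 5.03 in Zeb2low CDPs, and 5.97 and 4.82 in pre-CD8 DCs. Between 6 and 9 of these 10 passed the 40th percentile on an array, and their summed signal ranged from 44.0 to 46.6, 47.7 to 56.2 and 48.2 to 59.7 in the same groups. The highest arrays were pre-CD8 DC array 1 and Zeb2low array 2 for 10 of 10 neutrophil and 8 of 10 macrophage markers. Spic, the transcription factor of iron-recycling macrophages, had log2 signals of 5.24 on Zeb2low array 2 and 6.22 on pre-CD8 DC array 1, against 3.42 to 4.71 on the other arrays. The exceptions were Cd163, with 5.38 and 5.43 on those arrays against 5.78 to 6.55 in Zeb2hi CDPs, and Timd4, with 4.24 on pre-CD8 DC array 1 against 4.58 to 4.63 in Zeb2low CDPs. Mertk, a receptor for apoptotic cells, stayed below that percentile on all 8 arrays. Of 12 erythroid markers 7 had a probe set, with means of 4.43 to 4.72 in Zeb2hi CDPs, 4.77 to 6.04 in Zeb2low CDPs and 5.02 to 5.15 in pre-CD8 DCs. Their mean was highest on Zeb2low array 3 and was 4.79 on Zeb2low array 2. In bulk samples, fewer cells of a type and less RNA per cell cannot be told apart, and the part of these markers in the Hmox1 and Slc40a1 signals was not tested.

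**Figure D3:**
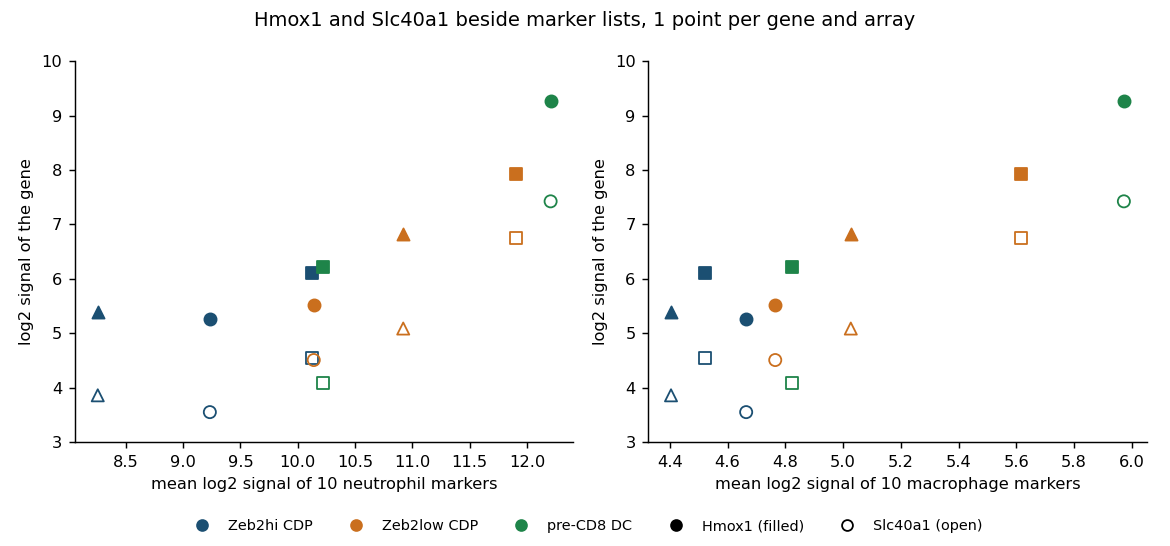
Log2 signal of Hmox1 (filled) and Slc40a1 (open) on each array (vertical axis) against the mean log2 signal of 10 neutrophil markers (left) or 10 macrophage markers (right); colours give the group and circles, squares and triangles arrays 1, 2 and 3. Pre-CD8 DC array 1 (green circle) and Zeb2low array 2 (orange square) are highest on every axis.

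The iron regulatory proteins varied least. Ireb2, which is degraded when iron is plentiful, had log2 signals of 7.37, 7.12 and 7.04 in Zeb2hi CDPs, 7.33, 6.64 and 6.84 in Zeb2low CDPs, and 6.86 and 6.42 in pre-CD8 DCs. Only the outer groups did not overlap (-0.54 ± 0.24, pre-CD8 DCs minus Zeb2hi CDPs, log2, SE). Aco1, which switches between aconitase and RNA-binding protein with its iron-sulfur cluster, had 6.24, 6.76 and 6.79, then 6.53, 6.37 and 6.64, then 6.27 and 6.56 in the same groups. All 3 groups overlapped, and the differences lay between -0.18 and -0.08. Over the 8 arrays Aco1 spanned 0.54 log2 units, the least of the 8 genes, and Ftl1 4.63, the most.

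The 8 genes were also counted beside all genes. Arrays did not overlap for 3 of 8 genes between Zeb2low and Zeb2hi CDPs (41.8% of all 13356 genes tested), for 1 of 8 between pre-CD8 DCs and Zeb2low CDPs (27.7%) and for 3 of 8 between pre-CD8 DCs and Zeb2hi CDPs (48.4%). In limma's fit with Benjamini-Hochberg adjustment at 0.05, Zeb2low CDPs had 1 of 8 lower than Zeb2hi CDPs and 0 higher, where 10.3% and 4.5% of all genes were called. Pre-CD8 DCs had 1 of 8 lower than Zeb2low CDPs (0.217% of all genes) and 0 higher (0.337%), and 1 of 8 lower than Zeb2hi CDPs (11.1%) and 0 higher (6.51%). Nothing is read from these counts, because the genes were named with the same contrasts in view. The median log2 difference of the 8 genes was -0.24, 0.13 and -0.38 in the 3 comparisons, beside 0.03, -0.03 and -0.02 over all genes. The comparisons share arrays and are not independent.

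The genes with array patterns nearest to those of Ftl1 and Hmox1, which had the widest ranges over the arrays, were also listed. Likeness was the root-mean-square difference of log2 signals over the 8 arrays after centring each gene. Nearest to Ftl1 on 10447591 were the histone gene H2ac4 (0.49), the interferon-induced Ifitm2 (0.55), Cyba of the phagocyte oxidase (0.58), the mitochondrial ribosomal gene Mrps18b (0.61) and Tmem14c (0.63), where the median over all genes was 1.56. Nearest to Hmox1 were Cd177, a neutrophil surface gene (0.19), Oasl2 (0.25), Actn1 (0.25), Pygl (0.26) and Grina (0.27), with a median of 1.36. All of these genes nearest to Hmox1 had their highest signals on pre-CD8 DC array 1 and Zeb2low array 2 (log2 10.24 and 9.13 for Cd177). That follows from picking them by their likeness to Hmox1 over the same arrays.

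A further 94 genes of iron uptake, storage, export, regulation, heme and iron-sulfur (Fe-S) metabolism and of the Nrf2 and Bach1 response were listed by function, of which 78 could be tested. In Zeb2low CDPs 14 of the 78 fell below Zeb2hi CDPs and 0 rose (limma, adjusted p under 0.05), or 17.9%, where 10.3% of all genes were lower. The median difference of the list was -0.17. Assembly of Fe-S clusters supplied most of them, with 6 of 18 mitochondrial and 4 of 9 cytosolic genes lower. Lyrm4, a partner of the cysteine desulfurase, fell 3.63-fold (-1.86 ± 0.29, adjusted p = 0.00656), from 8.42 ± 0.58 to 6.56 ± 0.12 (SD, n = 3 each). Hspa9, the chaperone of cluster transfer, fell too (-1.40 ± 0.15, adjusted p = 0.00169), as did Glrx5, a cluster carrier (-1.32 ± 0.22, adjusted p = 0.00773). The desulfurase itself, Nfs1, named after its values were seen, fell by 1.12 on the log2 scale (SE 0.18, adjusted p = 0.00623). Among the cytosolic factors, Nubp2, a scaffold subunit, was 2.99-fold lower (-1.58 ± 0.31, adjusted p = 0.0139) and Ciao1, of the targeting complex, 2.27-fold lower (-1.18 ± 0.18, adjusted p = 0.00627).

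Other roles had few calls between the CDP fractions. Tmem14c, which carries porphyrin precursors in heme synthesis, had the largest fall of the list, 4.44-fold (-2.15 ± 0.45, adjusted p = 0.0178). It was the only one of 9 heme synthesis genes called in limma's fit to the unaltered values of all arrays, without a replicate block. With arrays centred on their medians, Alad (adjusted p = 0.0397) and Fech (adjusted p = 0.0368) also passed as lower. Alad passed as well without Zeb2hi array 1 (adjusted p = 0.00774). Blvra, which reduces biliverdin (-0.86 ± 0.22, adjusted p = 0.034), Rnf217, a ubiquitin ligase of ferroportin (-0.71 ± 0.20, adjusted p = 0.0432), and the Nrf2 target Txnrd1 (-0.72 ± 0.19, adjusted p = 0.0336) fell as well. No gene of uptake (11 tested), storage (3) or regulation (7) passed; their smallest p-values belonged to Cd163 (-0.57 ± 0.21, adjusted p = 0.103), Pcbp2 (-0.47 ± 0.16, adjusted p = 0.0788) and Hif1a (0.37 ± 0.15, adjusted p = 0.122).

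The count of 14 depended on single arrays, as did the calls over all genes, given further on. It was 5 without Zeb2hi array 2 or array 3, and 9, 8 and 7 without Zeb2low arrays 1, 2 and 3. Leaving out both arrays with the highest neutrophil marker means, 10 passed. Lyrm4, Nfs1, Hspa9, Glrx5 and Ciao1 passed in all 8 fits without 1 array. Nubp2 was lost when Zeb2hi array 2 (adjusted p = 0.0604) or array 3 (adjusted p = 0.0621) was left out. Tmem14c was lost without either of these (adjusted p = 0.0783 and 0.0748) and without Zeb2low array 3 (adjusted p = 0.0538). Blvra and Txnrd1 passed in 3 of these 8 fits and Rnf217 in 2; with the block over all arrays Blvra (adjusted p = 0.0535) and Rnf217 (adjusted p = 0.0536) did not pass. Blocking on the replicate number within the CDP arrays, where same-numbered arrays deviated together, called 4070 of all 13356 genes in either direction, against 1978 without it. Of the 78, 26 were then lower and 0 higher, the 14 among them. The 12 additions were the heme synthesis genes Alas1 (adjusted p = 0.0101) and Alad (adjusted p = 0.023), the storage chaperones Pcbp1 (adjusted p = 0.0139) and Pcbp2 (adjusted p = 0.0317), Cd163 (adjusted p = 0.0329) and Trf (adjusted p = 0.0456) of uptake, Abcg2 (adjusted p = 0.035) and Blvrb (adjusted p = 0.039) of heme handling, the mitochondrial iron and Fe-S genes Iscu (adjusted p = 0.00867), Cisd2 (adjusted p = 0.0433) and Abcb10 (adjusted p = 0.0463), and the Nrf2 target Prdx1 (adjusted p = 0.0322). A further quantile normalization left 10 of the 14, without Blvra, Ciao2a, Ciapin1 and Isca2.

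**Figure D4:**
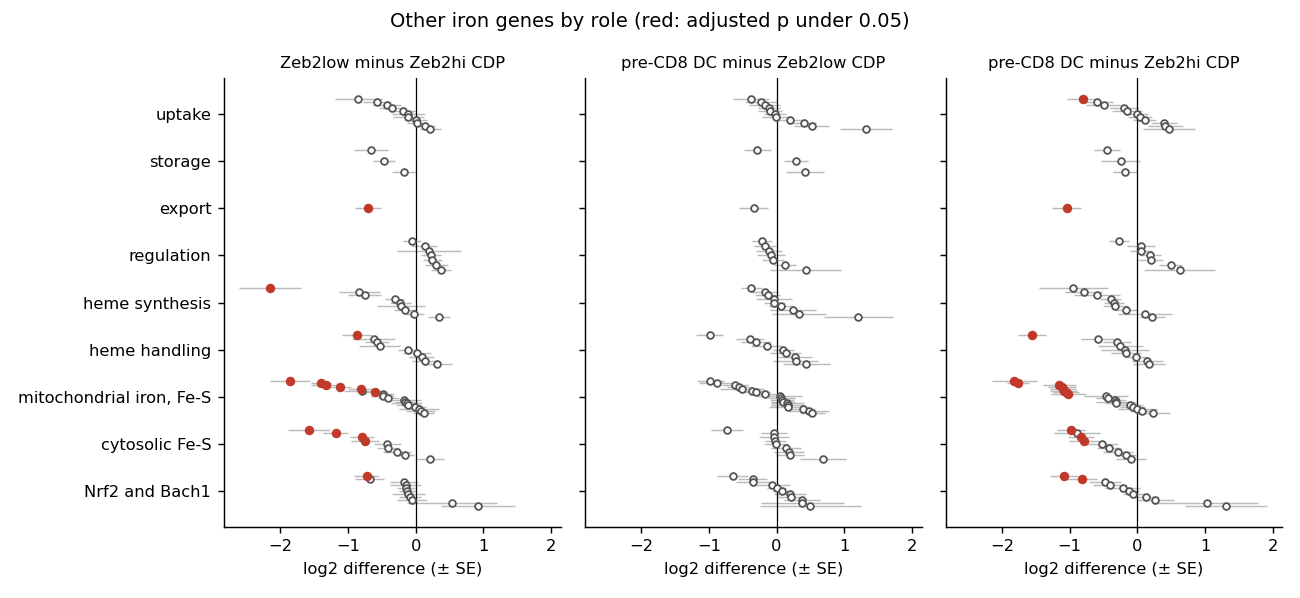
Log2 differences (horizontal axis, points, with SE as lines) of the 78 other iron genes, grouped by role (rows), in the 3 comparisons; red points passed limma's adjusted p under 0.05. Calls lie left of 0, mostly in the Fe-S rows, in both comparisons with Zeb2hi CDPs, and the middle panel has none.

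Pre-CD8 DCs had 16 of the 78 lower than Zeb2hi CDPs and 0 higher, or 20.5%, where 11.1% of all genes were lower; after a further quantile normalization 12 were lower and 1, Hif1a, was higher (0.55 ± 0.16, adjusted p = 0.0477). Fe-S genes again made up most, with 8 of 18 mitochondrial and 3 of 9 cytosolic genes. Hspa9 fell 3.38-fold (-1.76 ± 0.16, adjusted p = 0.00044) and Lyrm4 3.52-fold (-1.81 ± 0.33, adjusted p = 0.00754). Glrx5 fell 2.22-fold (-1.15 ± 0.25, adjusted p = 0.0146). Abcg2, an exporter of porphyrins, fell 2.94-fold (-1.56 ± 0.20, adjusted p = 0.00209), with log2 signals of 6.08 ± 0.17 (SD, n = 3) in Zeb2hi CDPs and 4.53 ± 0.27 (SD, n = 2) in pre-CD8 DCs. Txnrd1 (-1.08 ± 0.21, adjusted p = 0.00971) and Rnf217 (-1.05 ± 0.22, adjusted p = 0.0137) were lower too. The count was 10 without Zeb2hi array 3, 10 without pre-CD8 DC array 1, and 9 without both arrays with the highest neutrophil marker means. Hspa9, Lyrm4, Abcg2 and Txnrd1 passed in all 8 fits without 1 array. Rnf217 was lost without pre-CD8 DC array 2 (adjusted p = 0.0699), and Glrx5 without Zeb2hi array 3 (adjusted p = 0.0538) or pre-CD8 DC array 1 (adjusted p = 0.0772). Among the uptake genes Cd163, the hemoglobin scavenger receptor and also one of the macrophage markers, fell (-0.81 ± 0.24, adjusted p = 0.0476), but it passed in 0 of these 8 fits.

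Between pre-CD8 DCs and Zeb2low CDPs, 0 of the 78 passed in limma's fit at adjusted p under 0.05. At that threshold 0.337% of all genes were higher and 0.217% lower. Of the 78, 11 had an unadjusted p under 0.05 in the same fit. The share of all genes at the unadjusted threshold was not counted, so nothing is read from the 11. The nearest were Abcg2 (-0.99 ± 0.20, adjusted p = 0.0877) and Cisd1 (-0.98 ± 0.20, adjusted p = 0.0899). Trf, the iron carrier transferrin, was 2.49-fold higher in pre-CD8 DCs without passing (1.32 ± 0.38, adjusted p = 0.199).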

How the data were processed

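The authors' table holds 1 linear intensity per probe set and array, which the authors summarised by RMA (robust multi-array average) with Expression Console, per the submitters' processing notes; its version and the annotation's build are not given here. RNA was amplified with a kit for small amounts, per the labels' protocols. Of 28853 probe sets, 21789 name 1 gene, 1621 several, and 5443 were unnamed here; only the first kind was tested. No symbol needed updating through RefSeq gene IDs.

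Intensities were log2 transformed. Probe sets above the array's 40th percentile on at least 2 arrays were kept. Where a gene had several, the one brightest on average stood for it, leaving 13356 genes and all 8 measured members. limma 3.58.1 (R 4.3.3; lmFit, eBayes, two-sided) was fitted to all 8 arrays (5 residual degrees of freedom), with Benjamini-Hochberg adjustment over all genes at 0.05. A value after ± beside a log2 difference is the standard error. RMA gives no detection call, and the number of arrays limits the precision.

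On simulated data of 13356 genes, 100 genes were changed by each size. For Zeb2low against Zeb2hi CDPs, 62 (log2 change of 1) and 96 (change of 2) were recovered. For pre-CD8 DCs, 43 and 84 were recovered against Zeb2low, and 44 and 89 against Zeb2hi CDPs. The simulated noise was independent between genes and arrays, which that of the real arrays was not, so these counts do not give the power of the real comparisons. Deviations of same-numbered Zeb2hi and Zeb2low arrays correlated across genes (r = 0.478, 0.407 and 0.308). Those numbers were therefore taken to pair the CDP arrays, but only in the replicate blocks. The main fit held the group alone and no pairing. For pre-CD8 DC arrays 1 and 2 the correlations were negative, with r = -0.17 and -0.31 against Zeb2hi and -0.40 and -0.59 against Zeb2low arrays. The block over all arrays thus has no such basis for pre-CD8 DCs. The labels do not say what the numbers mean.

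Members, lists and alternatives were chosen with earlier results of these data known. Named list genes were those with the largest differences past the test in each role, up to 3 per direction, or the one with the smallest p where none passed; not all are printed. Marker lists of DC progenitors, cDC1s, monocytes, neutrophils, macrophages and erythroid cells were written from textbook knowledge.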

Additional observations from a re-analysis of the deposited data

How the results depend on the processing

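Of the measured members, 1 difference had been called in each comparison. Nothing is read from these calls, because the genes were named with the same contrasts in view. The called differences kept their sign under the alternatives tried, which did not include the shared Ftl1 probe sets. The call between the CDP fractions was that of Ftl1, and shared probe set 10428336 went the other way (0.42 ± 0.13, log2, SE). Some differences that had not been called changed sign under the alternatives. Between pre-CD8 DCs and Zeb2low CDPs, Hmox1 went from 0.98 to -0.55 and Slc40a1 from 0.31 to -1.36 without pre-CD8 DC array 1. Of 413 recomputed member differences, 391 moved by less than the gene's own residual SD, which was 1.14 for Ftl1, 1.26 for Hmox1 and 1.33 for Slc40a1. The other 22 moved more, most of them when a pre-CD8 DC array was left out. The count of other iron genes lower in Zeb2low than in Zeb2hi CDPs rose from 14 to 25 with arrays centred on their medians. It was 26 with the replicate block over the CDP arrays and 10 after quantile normalization. Calls over all genes moved as well, as given below. Counts of the list under the alternatives therefore do not show whether it moved more than all genes did. Leaving out 1 array gave 5 to 15. For pre-CD8 DCs against Zeb2hi CDPs it was 10 to 16, and 9 without both arrays of highest neutrophil marker means (the second Zeb2low and the first pre-CD8 DC array), an alternative added after seeing the data; pre-CD8 DCs then rest on 1 array, assumed to vary like the others.

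Counts over all genes moved as follows. For Zeb2low against Zeb2hi CDPs, 1978 genes were called, 4070 with the replicate block over the CDP arrays, and 532 to 2222 without 1 array. For pre-CD8 DCs against Zeb2low CDPs, 74 were called, 15 with the replicate block over all arrays, 16 with only these groups fitted, 11 without both of those arrays, and 20 to 117 without 1 array. For pre-CD8 DCs against Zeb2hi CDPs, 2352 were called, 1180 without both arrays and 1173 to 2779 without 1 array. Centring on array medians moved the median difference of all genes between the CDP fractions from 0.03 to -0.14. The share of higher genes among the calls there was 30.4%, 14.2% after centring and 40.9% after quantile normalization; for pre-CD8 DCs against Zeb2low CDPs it was 60.8% and 72.3% after centring. The cause of these changes was not tested. The block over all arrays left 10, 0 and 14 other iron genes called in the 3 comparisons.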

Other observations

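Fbxl5, the iron-sensing subunit of the ubiquitin ligase that degrades Ireb2, and the genes that follow were singled out after their values were seen. Fbxl5 log2 signals were 6.78, 6.82 and 6.83 in Zeb2hi CDPs, 6.76, 7.66 and 6.60 in Zeb2low CDPs, and 8.46 and 6.42 in pre-CD8 DCs, so that pre-CD8 DC array 1 and Zeb2low array 2 were again the highest. Slc7a11, the cystine importer and an Nrf2 target, had 5.81 on pre-CD8 DC array 1 and 5.58 on Zeb2low array 2, and 3.35 to 4.45 on the other arrays. Among erythroid markers, the carbonic anhydrase gene Car1 had a log2 signal of 9.49 on Zeb2low array 3 and between 3.91 and 7.33 elsewhere, while the erythroid heme synthesis gene Alas2 lay between 4.33 and 5.00 on all arrays.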
